A study of Homo sapiens with 12 samples.

Results

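The telomerase and shelterin genes are 9 genes whose products build and guard chromosome ends: TERT, TERC, DKC1, TERF1, TERF2, TERF2IP, TINF2, POT1 and ACD. Telomerase copies its RNA template onto the guanine-rich strand of the telomere, and shelterin coats the repeats and controls access to them. A G-quadruplex is a fold of DNA in which guanines from several runs pair in flat, stacked layers, and it is known from telomeric repeats and from promoters. The values here concern the promoters of the 9 genes, since telomeric repeats themselves have no window.

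The cells were HEK293, an established and telomerase-positive human embryonic kidney line, grown without any treatment. Folded structures were captured from fixed, sonicated chromatin with the antibody BG4. All 12 samples share this 1 condition: BioRep1, BioRep2 and BioRep3, the biological replicates, have 1 input (not analysed here) and 3 technical ChIP libraries apiece, or 9 in use. Separate cultures are not named for the replicates, so p-values cover only counting error and the spread between these libraries, which may be technical. The label of a kidney line cannot be checked with these data, which hold no expression.

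For each gene, the window of 400 bp on the gene's strand with its centre nearest the RefSeq 5′ end was taken, up to 1 kb away, together with all peaks from 5 kb upstream to 5 kb downstream. Of the 9 genes, 8 had such a window, among 17050 of 20056 protein-coding genes placed in the same way (TERC, which makes no protein, came in addition). TERF2 had none. The 3 peak lists held 30 peaks around the 9 genes, 6 in BioRep1, 13 in BioRep2 and 11 in BioRep3, of 7931, 11665 and 13049 peaks in all. The libraries held 372030 to 846114 reads in windows, and the member windows 78 to 528 reads each over all libraries. Levels are given as CPM, the count per library scaled to an equal sum over all windows, averaged over technical libraries and then over biological replicates (mean ± SD, n = 3).

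The sequences of 4 promoters are shown, TERT because it had no peak and DKC1, POT1 and TINF2 as examples with peaks. Those of TERF2IP and ACD, which also had peaks, are not shown. The 250 bases upstream of the RefSeq 5′ end are given on the gene's strand (RefSeq, GRCh38.p14), with runs of 3 or more G or C in capitals. A run of C is a run of G on the opposite strand.
TERT (chr5:1295069-1295318, minus strand): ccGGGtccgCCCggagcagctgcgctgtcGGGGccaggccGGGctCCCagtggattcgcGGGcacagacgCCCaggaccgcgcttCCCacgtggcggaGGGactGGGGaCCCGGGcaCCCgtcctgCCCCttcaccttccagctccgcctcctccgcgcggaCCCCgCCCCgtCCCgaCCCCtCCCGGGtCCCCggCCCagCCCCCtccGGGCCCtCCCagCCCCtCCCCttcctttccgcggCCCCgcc
DKC1 (chrX:154762614-154762863, plus strand): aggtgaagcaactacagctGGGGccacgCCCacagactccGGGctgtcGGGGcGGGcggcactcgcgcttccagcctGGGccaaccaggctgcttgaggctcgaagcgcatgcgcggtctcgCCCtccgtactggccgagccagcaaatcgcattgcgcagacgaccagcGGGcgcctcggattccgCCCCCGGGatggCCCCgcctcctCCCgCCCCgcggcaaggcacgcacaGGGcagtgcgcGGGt
POT1 (chr7:124929826-124930075, minus strand): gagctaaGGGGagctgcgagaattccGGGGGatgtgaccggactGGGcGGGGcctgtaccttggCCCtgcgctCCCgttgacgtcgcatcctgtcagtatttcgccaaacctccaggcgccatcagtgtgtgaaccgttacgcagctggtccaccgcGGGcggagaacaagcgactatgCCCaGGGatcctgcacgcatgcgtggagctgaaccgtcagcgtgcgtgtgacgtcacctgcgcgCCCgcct
TINF2 (chr14:24242675-24242924, minus strand): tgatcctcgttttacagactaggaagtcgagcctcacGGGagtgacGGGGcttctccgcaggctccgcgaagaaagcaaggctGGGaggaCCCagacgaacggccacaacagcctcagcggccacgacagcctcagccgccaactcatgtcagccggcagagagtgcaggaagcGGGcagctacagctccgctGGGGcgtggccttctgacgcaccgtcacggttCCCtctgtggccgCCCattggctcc

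Peaks lay within 1 kb of the 5′ ends of 8 of the 9 genes, and TERT had none from 5 kb upstream to 5 kb downstream. The share of protein-coding genes with a peak within 1 kb was not worked out, so this count has no background. The 8 include TERF2, whose 5′ end was assumed, and ACD and POT1, whose peaks had midpoints nearer to the 5′ end of another gene. A peak of all 3 lists was present in the window at DKC1, TERF2IP, POT1 and ACD, or 4 of the 8 genes with a window. Among protein-coding genes the background was 23.9%. TERC, TERF1 and TINF2 had peaks in BioRep2 and BioRep3 and none in BioRep1, a pattern seen in 9.16% of protein-coding windows. Thus 7 of 8 windows had peaks of at least 2 lists, against a background of 34.2%, and the same 7 had a peak of any list, against 41.3%. BioRep1 had the shortest list, and without it 7 of 8 windows had a peak of both other lists. The protein-coding share under that rule is made up of the 23.9% and the 9.16% above. The genes were chosen with earlier results of these data known, so no test was made on these counts.

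Over each whole gene with its 5 kb flanks, 5 of 9 genes held a consensus region, that is, merged peaks shared by all 3 lists. They were DKC1, TERF2, TERF2IP, POT1 and ACD, against a background of 33.9% of protein-coding genes. Without BioRep1, 8 of 9 genes held a region shared by the other lists. The share of protein-coding genes under this easier rule was not worked out, and the 33.9% does not apply to it. Of the 30 peaks, 28 lay within 1 kb of the member's RefSeq 5′ end, and none lay elsewhere in a gene body. The other 2 lay upstream of TERC, close to the 5′ end of a neighbouring gene, ACTRT3. The search covered 339.8 kb, and the same share over all peaks was not worked out. Another gene's 5′ end was nearer to the midpoints of the ACD peaks (PARD6A), the POT1 peaks (POT1-AS1) and a BioRep3 peak of TERF2IP (KARS1). The 30 peaks measured 3 to 438 bp, with a median of 148.5 bp.

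**Figure D1:**
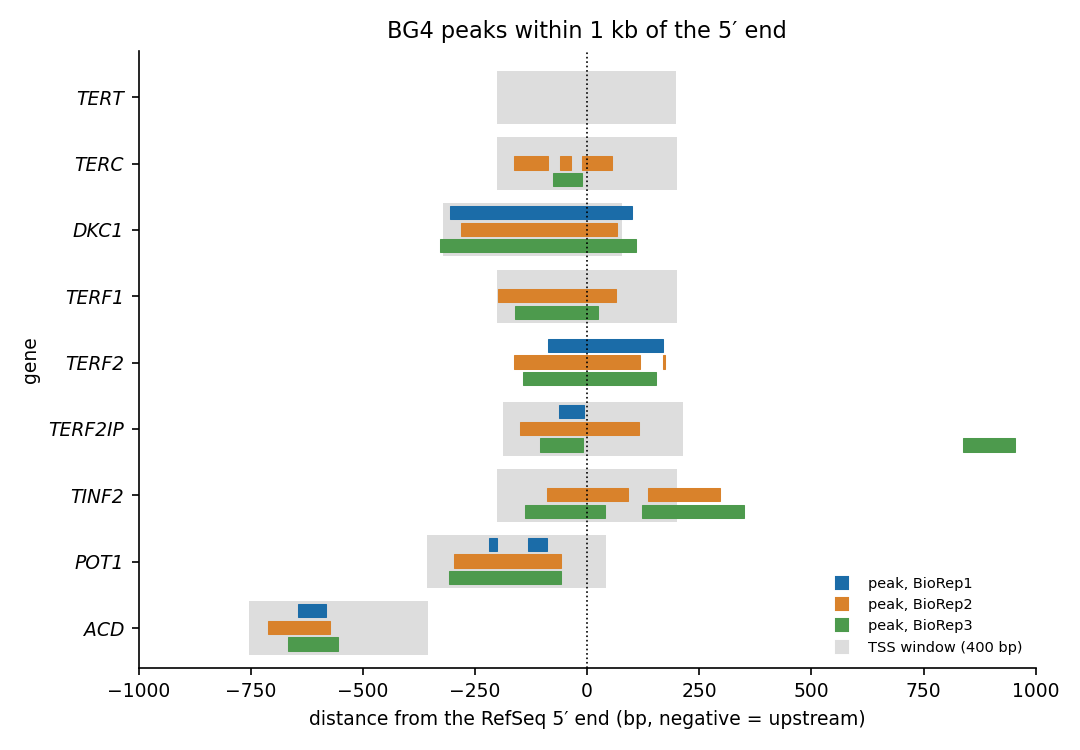
Peaks of the 3 lists within 1 kb of the RefSeq 5′ end of each gene (horizontal axis, bp along the gene, negative upstream); coloured bars are peaks of BioRep1, BioRep2 and BioRep3, and grey boxes are the 400 bp windows. TERT has no bar, TERF2 has bars and no window, and TERC, TERF1 and TINF2 have no bar for BioRep1.

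TERT encodes the reverse transcriptase that adds telomeric repeats. Its window (chromosome 5, 1294870 to 1295269, hg38, ENSG00000164362.18) is centred 1 bp from the RefSeq 5′ end and covers the proximal promoter and the start of the gene. It held 9.39, 10.7 and 23.6 CPM in BioRep1, 20.8, 11.8 and 9.40 CPM in BioRep2, and 7.79, 15.8 and 18.5 CPM in BioRep3. The technical libraries differed more than the biological replicates, whose means were 14.6, 14.01 and 14.04 CPM. The mean of 14.2 ± 0.314 CPM rested on 23, 28 and 27 reads. The 95% exact Poisson intervals of these sums, 9.33 to 22.1, 9.03 to 19.6 and 9.21 to 20.3 CPM, are far wider than the SD, so the small SD is no measure of precision. These intervals cover counting error only.

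Protein-coding windows free of peaks had a median of 11.1 CPM, and the TERT level was 1.28 times that. It was higher than 63.6% of those windows and lower than every protein-coding window with a peak of all 3 lists. Peak-free windows of other kinds within 5 Mb averaged 8.07 ± 0.308 CPM (n = 3, 84 windows), which gave a ratio of 1.76 ± 0.0697. The SD of this ratio rests on the same few TERT reads and, like that of the level, is no measure of precision. No peak of any list lay in the 51.9 kb from 5 kb upstream to 5 kb downstream of the gene. Such an empty span is common: it was found at 44.6% of protein-coding genes, and at 35.1% of the 2262 genes between 0.8 and 1.25 times as long as TERT. The nearest peak beyond the 5′ end was 34 bp long and 50.0 kb away, in BioRep3 alone, with its midpoint 52 bp from the 5′ end of CLPTM1L. In the other lists the nearest on that side was 4127 kb away. Beyond the 3′ end, all 3 lists had a peak 360 kb away, at the 5′ ends of TRIP13 and BRD9.

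The lack of a peak at TERT was not matched by a lack of guanine runs. Its 250 upstream bases held 9 runs of GGG or longer and 20 of CCC or longer, or 29 in all. Of 10277 protein-coding promoters whose window centre lay within 200 bp of the RefSeq 5′ end, 99.5% had fewer. The GC content was 78.8%, above that of 94.3% of these promoters. A motif of 4 runs of GGG or longer, separated by 1 to 7 bases of any kind, was found on the strand opposite to the gene. It occurs on either strand in 28.2% of the promoters.

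Promoters with as many runs as TERT were few and differed among themselves. Only 47 of the 10277, counting TERT itself, had at least 29 runs. Of these, 13 had a peak of all 3 lists (27.7%, 95% Wilson interval 16.9 to 41.8%) and 23, again counting TERT, had no peak (48.9%, 35.3 to 62.8%). Over all promoters the share with a peak of all 3 lists was 27.8%. It was 0.831% with up to 2 runs, 5.31% with 3 to 5, 14.7% with 6 to 8 and 28.8% with 9 to 11. It was 36.6% with 12 to 14 runs and 36.7% with 15 or more. These shares describe letters in a fixed stretch of sequence and do not show that a structure forms.

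**Figure D2:**
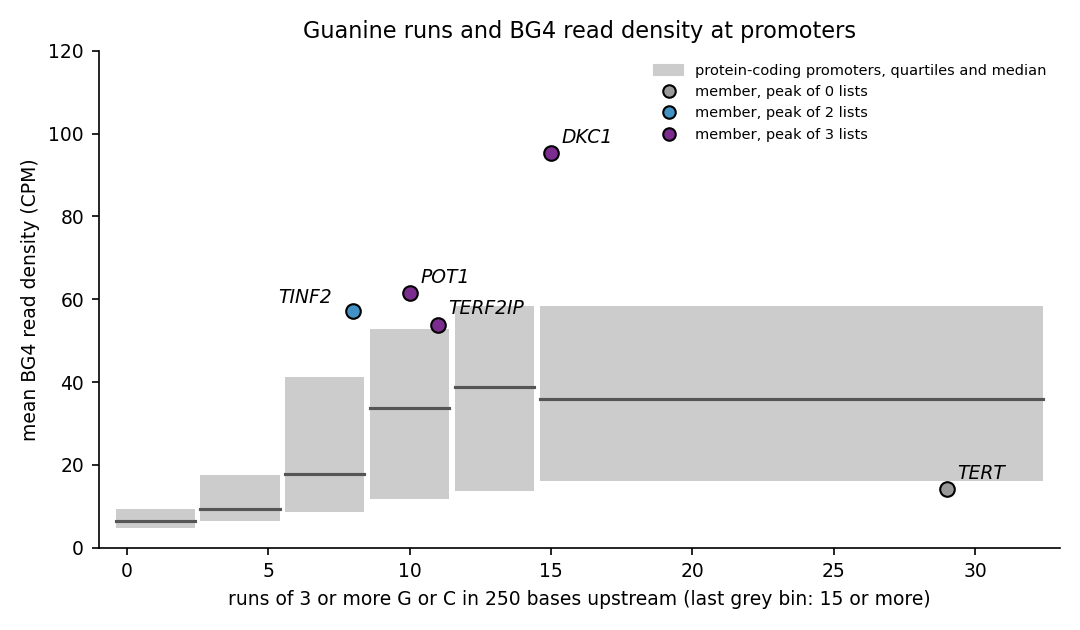
Mean read density (CPM, vertical axis) against the number of runs of 3 or more G or C in the 250 bases upstream (horizontal axis); grey boxes and lines are quartiles and medians of protein-coding promoters, and circles are members with a promoter sequence and a window within 200 bp. TERT has 29 runs and 14.2 CPM, while DKC1 has 15 runs and 95.2 CPM.

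TERC is the RNA that carries the template of telomerase. Its window (chromosome 3, 169764861 to 169765260, ENSG00000270141.3) is centred on the RefSeq 5′ end and, at this short gene of 0.451 kb, spans promoter and transcribed sequence. It held 29.7, 34.9 and 34.4 CPM in BioRep1, 43.4, 44.9 and 51.7 CPM in BioRep2, and 42.1, 27.3 and 38.8 CPM in BioRep3. All 3 BioRep2 libraries were above all BioRep1 libraries, and the BioRep3 libraries overlapped those of BioRep1 and lay below all of BioRep2. The mean was 38.6 ± 7.16 CPM, or 3.48 times the median without a peak and 5.28 ± 0.981 times the local level of 7.32 CPM. BioRep2 had 3 peaks of 67, 23 and 75 bp across the 5′ end, from -163 to 54 bp. BioRep3 had 1 peak of 65 bp, from -76 to -12 bp.

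DKC1 encodes dyskerin, which binds the 3′ part of TERC and keeps the RNA stable. It had the highest level of the 8 genes (chromosome X, 154762543 to 154762942, ENSG00000130826.17, centred 122 bp upstream of the RefSeq 5′ end). The libraries held 67.3, 96.8 and 88.8 CPM in BioRep1, 104.1, 95.7 and 90.9 CPM in BioRep2, and 98.2, 99.1 and 116.2 CPM in BioRep3. The lowest library was in BioRep1 and the highest in BioRep3. The mean was 95.2 ± 10.2 CPM, 8.59 times the median without a peak and above 88.7% of protein-coding windows with a peak of all 3 lists. Against its surroundings on the X chromosome, at 6.36 ± 0.183 CPM, the ratio was 14.99 ± 1.79. Its peaks were long, with 404, 348 and 438 bp, and together spanned -329 to 108 bp. The upstream sequence printed above holds 15 runs, more than 64.3% of promoters, and the 4-run motif on the opposite strand.

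TERF1 and TERF2 encode the proteins that bind double-stranded telomeric repeats, and TERF2 is the one known for folding the end into a loop. The TERF1 window (chromosome 8, 73008665 to 73009064, ENSG00000147601.13) is centred on the RefSeq 5′ end. It held 39.1, 51.1 and 41.7 CPM in BioRep1, 43.4, 54.4 and 58.0 CPM in BioRep2, and 46.8, 54.6 and 60.7 CPM in BioRep3. The replicates overlapped, and the mean was 49.9 ± 5.29 CPM, 4.50 times the median without a peak. A peak of 262 bp in BioRep2 and 1 of 186 bp in BioRep3 lay together between -198 and 63 bp.

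TERF2 had a peak of all 3 lists at its 5′ end but no window there. The tables used here give no strand for it. As it is known as a minus-strand gene, the higher end of its RefSeq model, 69386007 on chromosome 16, was taken as its 5′ end. Peaks of 256 bp in BioRep1, 280 bp in BioRep2 and 295 bp in BioRep3 lay across this position, and BioRep2 had a further piece of 3 bp. The consensus region ran from 69385839 to 69386170, or from -163 to 168 bp. The nearest window on the minus strand was centred 22.6 kb away (69408372 to 69408771, ENSG00000132604.10), beyond the limit of 1 kb. It had 7.27 ± 1.82 CPM and no peak. The tables do not pair its ID with a gene name, so it may be the start that GENCODE gives to TERF2, which was not tested. Read density at the occupied position could therefore not be given.

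TERF2IP encodes RAP1, which joins shelterin through TERF2. Its window (chromosome 16, 75647587 to 75647986, ENSG00000166848.5) held 51.7, 69.9 and 50.7 CPM in BioRep1, 46.8, 52.0 and 73.6 CPM in BioRep2, and 43.6, 45.9 and 50.5 CPM in BioRep3. In BioRep1 and BioRep2 a single library stood above the others. The mean was 53.9 ± 6.21 CPM, 4.86 times the median without a peak and 6.79 ± 0.441 times the local level. Peaks of 56, 265 and 97 bp lay upstream of or across the 5′ end, and BioRep3 had a second peak of 115 bp from 838 to 952 bp downstream. The RefSeq 5′ end of KARS1, on the opposite strand, lies inside the TERF2IP window, so the reads there cannot be assigned to either gene alone. The second BioRep3 peak lies in the window placed for KARS1.

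TINF2 encodes TIN2, the bridge between the double-strand binding proteins and ACD. Its window (chromosome 14, 24242475 to 24242874, ENSG00000092330.16) held 59.5, 64.5 and 36.2 CPM in BioRep1, 57.2, 54.4 and 67.4 CPM in BioRep2, and 49.9, 68.9 and 55.6 CPM in BioRep3. The lowest value was a single BioRep1 library, and the replicate means of 53.4, 59.7 and 58.1 CPM lay close together. The mean was 57.1 ± 3.25 CPM, 5.15 times the median without a peak. BioRep2 and BioRep3 each had a pair of peaks, one across the 5′ end (180 and 177 bp) and one starting 136 or 123 bp inside the gene (159 and 226 bp). In BioRep1, where no peak was listed at TINF2, its level was 53.4 CPM. Among windows with a BioRep1 peak, DKC1 (84.3 CPM), TERF2IP and POT1 (both 57.4 CPM) were higher and ACD (36.0 CPM) was lower.

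POT1 binds the single-stranded overhang at the telomere end. Its window (chromosome 7, 124929784 to 124930183, ENSG00000128513.14) is centred 158 bp upstream of the RefSeq 5′ end. It held 64.2, 59.1 and 48.9 CPM in BioRep1, 72.8, 72.1 and 65.8 CPM in BioRep2, and 54.6, 58.9 and 57.3 CPM in BioRep3. Every BioRep2 library was above every other library. The mean was 61.5 ± 7.56 CPM, 5.55 times the median without a peak and 8.59 ± 0.839 times the local level. All of its peaks lay upstream, from -308 to -59 bp. BioRep2 and BioRep3 had 1 peak of 238 and 250 bp, whereas BioRep1 had 2 pieces of 42 and 17 bp in the same stretch. Counting only peaks of 50 bp or longer left POT1 without a peak in BioRep1. Its upstream bases held 10 runs and no 4-run motif.

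ACD encodes TPP1, the partner of POT1 that recruits telomerase. Its window (chromosome 16, 67660616 to 67661015, ENSG00000102977.13) is centred 555 bp upstream of the RefSeq 5′ end, and its peaks lay there too, from -711 to -557 bp, with 62, 138 and 110 bp. Their midpoints were 86, 58 and 89 bp from the 5′ end of PARD6A, which is nearer than that of ACD. The window held 36.0, 37.6 and 34.4 CPM in BioRep1, 32.95, 50.8 and 45.4 CPM in BioRep2, and 51.4, 35.9 and 45.5 CPM in BioRep3. The BioRep1 libraries were close together, within the wider range of the other libraries. The mean was 41.1 ± 4.46 CPM, 3.71 times the median without a peak. This was below the level of TERF1 and TINF2, which had peaks of 2 lists. Of protein-coding windows with a peak of all 3 lists, 4.07% were lower. The window shares 269 bp with that of the opposite-strand neighbour PARD6A, so the reads of the 2 promoters cannot be told apart.

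**Figure D3:**
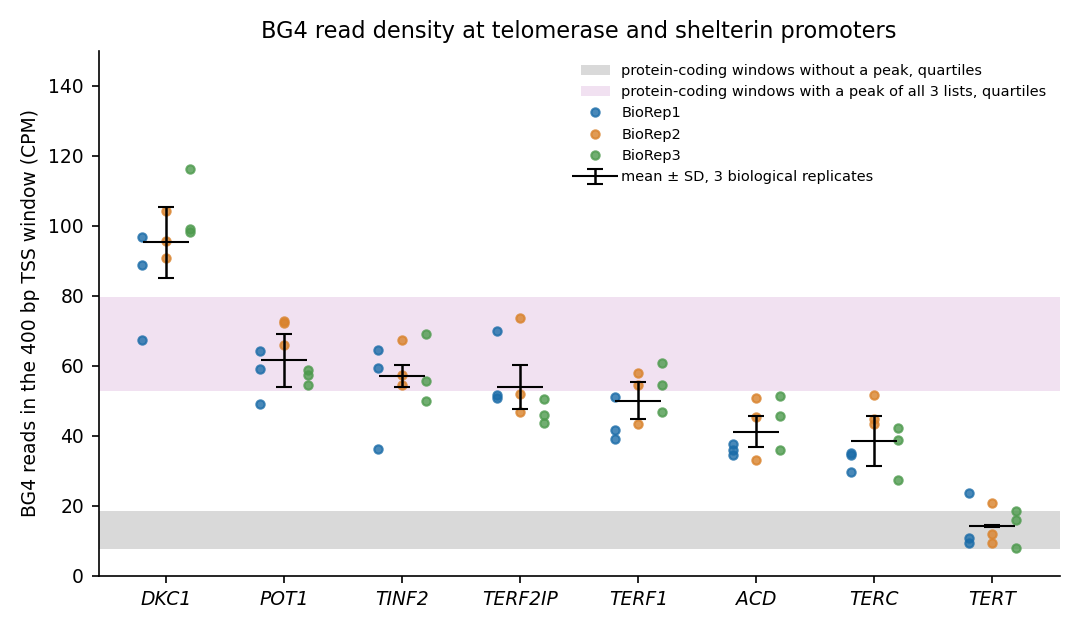
Read density (CPM, vertical axis) in the window of each of 8 genes; each point is 1 technical library coloured by biological replicate, black bars are the mean ± SD over 3 biological replicates, and bands are quartiles of protein-coding windows with no peak (grey) and with a peak of all 3 lists (purple). DKC1 lies above the purple band and TERT inside the grey one.

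Ordered by level, the genes ran DKC1, POT1, TINF2, TERF2IP, TERF1, ACD, TERC and TERT, with a median of 51.9 CPM over the 8 windows against 23.5 CPM over all protein-coding windows. Only 2 gaps in this order were wider than the spread. The lowest biological replicate of DKC1, 84.3 CPM, was above the highest of POT1, 70.2 CPM, although single libraries overlapped. The lowest replicate of TERC, 33.04 CPM, was above the highest of TERT, 14.6 CPM, and here no library overlapped either. All neighbouring pairs from POT1 to TERC had overlapping replicate values. DKC1 was 6.70 times as high as TERT. As the inputs were not analysed, the levels, their order and this ratio are not corrected for copy number, which differs along HEK293 chromosomes. Relative to their local levels, DKC1 stood at 14.99 and TERT at 1.76. Peak-free windows near the 8 genes averaged 6.36 to 8.32 CPM, and the lowest of these local levels was that of DKC1.

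No member window was called different between the biological replicates. In edgeR's quasi-likelihood test over the 3 replicates, 0 of 17499 windows were called at an adjusted p of 0.05 (0%), with 1379 at an unadjusted p under 0.05, and DESeq2 also called 0, with 334. Each of the 3 pairwise contrasts called 0 windows as well (0%), with 1328, 1508 and 979 at an unadjusted p under 0.05. Among the members, 1 of 32 tests had an unadjusted p under 0.05, that of TERC between BioRep2 and BioRep1. The log2 difference there was 0.49 (95% interval 0.0049 to 0.97), and the edgeR adjusted p was 0.650. All 3 BioRep2 libraries were higher. DKC1 was 0.29 higher in BioRep3 than in BioRep1 on the log2 scale (95% interval -0.03 to 0.61; edgeR adjusted p = 0.630), and the difference of POT1 between BioRep3 and BioRep2 was -0.33 (interval -0.69 to 0.02; edgeR adjusted p = 0.888). At TERT the interval for BioRep2 against BioRep1 ran from -0.98 to 0.71, so differences across that range are compatible with these few reads. The 3 genes without a BioRep1 peak had log2 differences of BioRep3 against BioRep1 of 0.08 at TERC, 0.27 at TERF1 and 0.10 at TINF2, none of which was called.

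**Figure D4:**
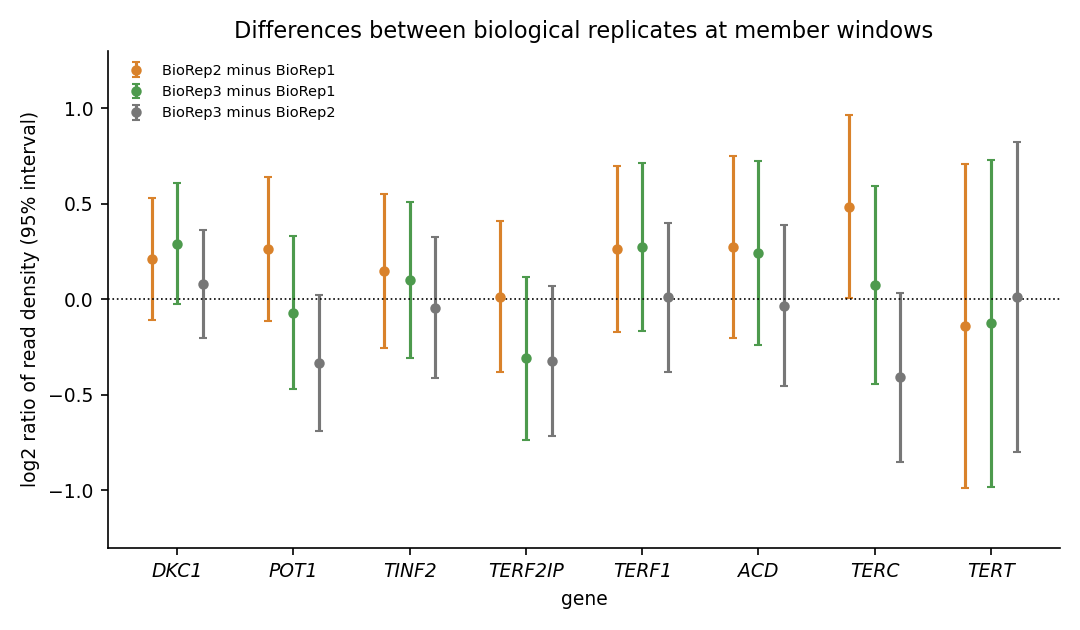
Log2 ratio of read density between biological replicates (vertical axis, edgeR estimate with its 95% interval) for the 8 genes; colours mark the 3 contrasts. All intervals but that of TERC for BioRep2 against BioRep1 include 0, and those of TERT are widest.

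The other genes of telomere maintenance were taken from 4 lists of 52 genes, of which 45 had a window. A peak of all 3 lists lay in 23 of these (51.1%), against 23.9% of protein-coding windows, and 11 windows had no peak. The median level was 45.7 CPM. None of the 42 that were tested was called in any of the edgeR tests (lowest adjusted p = 0.322, and 0.108 over all alternative settings, at DCLRE1B without the filter on low counts), with 18 of 168 tests at an unadjusted p under 0.05. No test between the members and these lists was made.

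The genes of telomerase assembly and TERC maturation had the lowest median, 38.7 CPM, with a peak of all 3 lists in 4 of 12 windows. NHP2, a partner of dyskerin, had 100.4 ± 14.1 CPM and RUVBL2, an ATPase of the assembly step, 89.0 ± 10.6 CPM, both with peaks of all 3 lists. RUVBL1, which forms a complex with RUVBL2, had 14.8 ± 3.12 CPM and no peak in its window. TOE1, an exonuclease that trims the RNA, had 19.8 ± 5.31 CPM and no peak in its window, which is centred 500 bp from the RefSeq 5′ end. Over the gene and its 5 kb flanks, unlike at TERT, RUVBL1 had 4 peaks and TOE1 had 5, with 1 consensus region each.

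The genes of the CST complex and of lagging-strand synthesis at telomeres had peaks of all 3 lists in 6 of 9 windows, and every window had a peak of at least 1 list. The median was 48.9 CPM. STN1, a CST subunit that binds single-stranded DNA, had 125.5 ± 6.44 CPM, above every member. TEN1, its partner, had 71.6 ± 8.05 CPM. The lowest were RPA1, the large subunit of the single-strand binding protein RPA, with 41.7 ± 2.50 CPM and peaks of all 3 lists, and the nuclease DNA2, with 40.2 ± 2.31 CPM and a peak in BioRep3.

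Genes of shelterin-associated factors had peaks of all 3 lists in 7 of 13 windows and a median of 42.8 CPM. DCLRE1B, the nuclease Apollo that works with TERF2, had 136.6 ± 22.5 CPM in a window centred 522 bp from the RefSeq 5′ end, and ERCC4, a nuclease subunit, 96.4 ± 11.2 CPM. RTEL1, a helicase that opens telomeric loops, had 22.8 ± 3.94 CPM and no peak in its window. RAD50 had 6.01 ± 1.29 CPM and no peak in its window, which lies 958 bp from the RefSeq 5′ end. Over the gene and its 5 kb flanks, RTEL1 had 6 peaks and RAD50 had 3, with 1 consensus region each. Among genes of telomere chromatin and of the telomerase-independent pathway, 6 of 11 had peaks of all 3 lists, with a median of 49.8 CPM. DAXX, a histone chaperone, had 72.1 ± 6.67 CPM and ZBTB48, a zinc finger protein that binds telomeric repeats, 65.6 ± 7.77 CPM. SUV39H1, a histone methyltransferase (13.0 ± 1.75 CPM), and ZNF827 (12.2 ± 1.91 CPM) had no peak in the window.

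**Figure D5:**
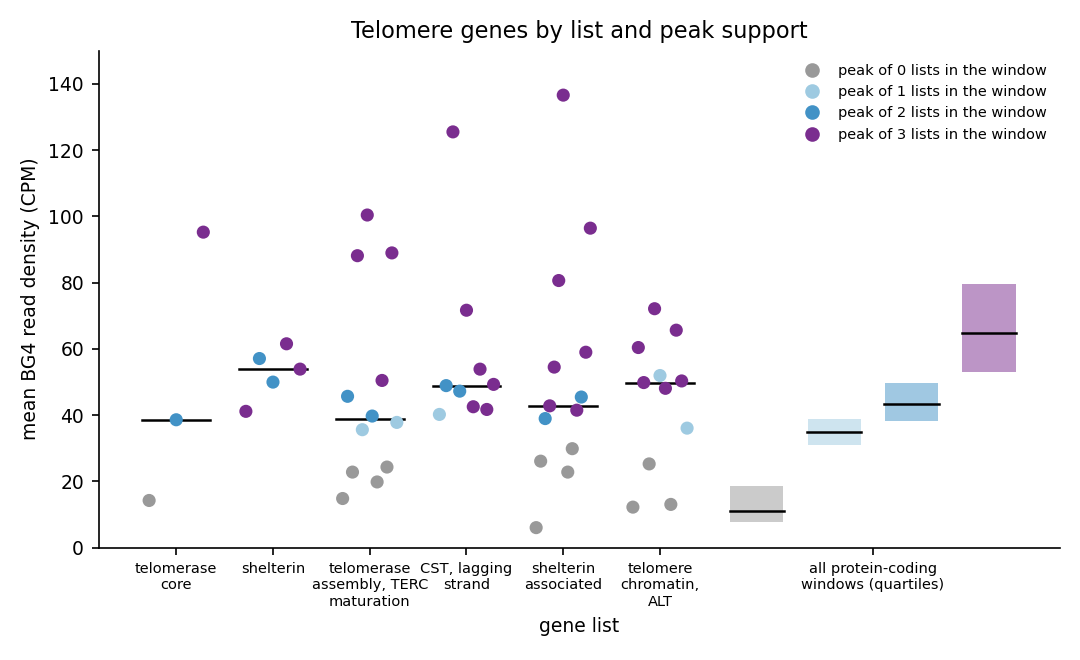
Mean read density (CPM, vertical axis) of each telomere gene by list; points are genes coloured by the number of peak lists with a peak in the window, lines are medians, and boxes at the right are quartiles of all protein-coding windows with a peak of 0, 1, 2 or 3 lists. TERT at 14.2 CPM is the lowest member, and STN1, DCLRE1B, NHP2 and ERCC4 lie above DKC1.

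Among the protein-coding windows most like TERT over the 9 libraries, by Euclidean distance of log2(CPM + 1), were those of TMC6 and RLBP1. Their distances were 0.887 and 0.918, their levels 14.3 and 13.6 CPM, and neither window had a peak. Those most like TERC were HMMR, INO80B and IQCC, at 0.294, 0.476 and 0.512, with 37.2, 39.5 and 41.0 CPM. The HMMR window had no peak and the others a peak of 1 list, where TERC had peaks of 2. With a single condition, the distance compares levels over replicate libraries.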

How the data were processed

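G-quadruplex ChIP of HEK293 chromatin was read in 9 ChIP libraries; the 3 inputs were not analysed here. The authors deposited raw read counts per 400 bp window, 200 bp to each side of a GENCODE release 28 TSS on hg38, per the file names, and 1 peak list (start and end only) per biological replicate. Trimming, mapping, duplicate marking and peak tools are listed in the submitters' processing notes (bedtools, BWA, cutadapt, MACS2, Picard). For their versions, peak thresholds and whether duplicates were removed, nothing was given; removal would limit the highest counts.

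The windows carry Ensembl IDs only. Genes were placed on them by RefSeq position (GRCh38.p14), with strand from the RefSeq promoter table for 15843 protein-coding genes and otherwise from the nearest window at either end (TERC, TERF1). At shared promoters reads cannot be assigned to a gene. Overlap meant at least 1 bp. All windows were fitted with edgeR 4.0.16 in R 4.3.3 (counts, TMM, filterByExpr, robust quasi-likelihood test, Benjamini-Hochberg) and with DESeq2 1.42.0 as an alternative. The fit was also run on simulated counts drawn with its own estimated spread. Such a run cannot show how the test handles variation between separate cultures. SEs follow from the edgeR p. Technical libraries are the replicates of that test. Library pairs of 1 biological replicate differed by 0.905 to 1.01 chi-square per degree of freedom, near or below the 1 of sampling noise. Such libraries were averaged to 1 value. Pairs from different biological replicates had 0.938 to 1.21. Python 3.11.15, pandas 2.3.3 and scipy 1.17.1 were used. Named genes were the members, the 2 highest and 2 lowest of each other list, the 3 nearest to TERT (1 of them is not reported here) and to TERC, and neighbours of member windows and peaks. Members and lists were chosen with earlier results of these data known.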

Additional observations from a re-analysis of the deposited data

How the results depend on the processing

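The counts of peaks depended most on BioRep1. The number of members with a peak of all 3 lists in the window, 4, was 7 with a peak of at least 2 lists and 7 with a peak of any list. Leaving out 1 biological replicate gave 4 to 7. Members with a consensus region within 5 kb, 5, numbered 3 in the gene body alone, 3 (ACD, TERF2 and DKC1) when peaks had to overlap by 50% of both, and 5 to 8 without 1 biological replicate. For these alternative rules on regions, shares of protein-coding genes were not worked out. The median member density of 51.9 CPM ran from 49.9 to 55.3 CPM without 1 technical number or 1 biological replicate. Its median ratio to background was 4.68 against peak-free protein-coding windows and 6.51 against the local level, whose windows held fewer reads (6.36 to 8.32 against 11.1 CPM). Without the filter on low counts edgeR called 25 windows over the 3 replicates, 6 for BioRep2 against BioRep1 and 28 for BioRep3 against BioRep1, none of them a member. The technical number as a replicate block gave 1 call in each of these 2 contrasts and 0 otherwise. Leaving out 1 library gave 0 to 1, 0 to 1 and 0 to 2 calls. Deviations of same-numbered libraries correlated at -0.015 to 0.026 over 9 pairs, and those of differently numbered libraries at -0.021 to 0.023 over 18 pairs. As these deviations are near counting noise, the correlations cannot tell whether same-numbered libraries shared a batch. The lowest adjusted p of any member over all settings was 0.492. At 78 reads, the depth limits TERT most.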

Other observations

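Windows of neighbouring genes lay within 1 kb of 4 member windows. A second window with no name by position (ENSG00000277925.1) shares 387 of the 400 bp of the TERC window and had 38.3 ± 6.92 CPM (SD, n = 3), so it repeats the same reads. POT1-AS1, an antisense RNA gene, has its window 110 bp downstream of that of POT1 with 290 bp in common, 56.9 ± 4.30 CPM and peaks of all 3 lists. PARD6A, a cell polarity gene, had 42.1 ± 3.88 CPM and peaks of all 3 lists in the window it partly shares with ACD. KARS1, lysyl-tRNA synthetase, has a window 857 bp from that of TERF2IP on the opposite strand, with 30.9 ± 3.28 CPM and a peak of 1 list. The RefSeq 5′ end of KARS1 lies 49 bp from the midpoint of the 97 bp BioRep3 peak at TERF2IP, and so inside the TERF2IP window. Reads at this shared promoter cannot be assigned to either gene alone. Upstream of TERC, peaks of 4 bp in BioRep2 and 89 bp in BioRep3 had midpoints 160 and 84 bp from the 5′ end of ACTRT3.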
